A study of Mus musculus with 16 samples.

Results

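The 37 genes described here are targets of the transcription factor NRF2 and genes of glutathione metabolism, chosen by name from the gene counts of a mouse liver RNA-seq study. They are 37 of the 53714 gene identifiers in the table, and all 37 passed the filter on low counts that left 13905 genes to be tested. Gsta1 passed it only through knockout libraries, as given below. The study compared livers of male mice aged 9 weeks that lack Slc25a47 in hepatocytes (genotype Slc25a47hep-/-, called KO here) with livers of mice that keep it (Slc25a47hep+/+, called WT). Mice of both genotypes are labelled with the strain C57BL/6 Slc25a47tm1c(EUCOMM)Hmgu, and each genotype was taken either after overnight fasting or in the fed state on chow diet. That gave 4 groups, fasted KO, fasted WT, fed KO and fed WT, of 4 libraries each. The driver that removes the gene in hepatocytes is not given in the sources used here, and the labels do not name an animal for each library, so the p-values measure the spread between these samples.

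NRF2, encoded by Nfe2l2, is held in the cytoplasm and sent for degradation by KEAP1. When electrophiles or oxidants modify KEAP1, NRF2 enters the nucleus and binds antioxidant response elements of genes for glutathione synthesis, NADPH production, quinone reduction and conjugation. Glutathione is the main small thiol of the hepatocyte: glutathione transferases join it to electrophiles, glutathione peroxidases use it to reduce peroxides, and glutathione reductase returns the oxidised form with electrons from NADPH. The oxidative branch of the pentose phosphate pathway, through G6pdx and Pgd, is one of the sources of that NADPH.

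The promoters of 5 of the genes are shown because, among differences that passed the test, these genes had the largest genotype differences of either sign (Gstm3, Gstp1) or the largest dependence of the genotype difference on feeding (Ugdh, G6pdx, Nqo1). Each runs 5′ to 3′ on the gene's strand from 250 bases before to 50 bases after the RefSeq start (GRCm38.p6), and capitals mark the core of the antioxidant response element, searched as TGACNNNGC on both strands. The windows are G6pdx at chrX:74428831-74429130, Ugdh at chr5:65435793-65436092, Nqo1 at chr8:107403156-107403455, Gstm3 at chr3:107969125-107969424 and Gstp1 at chr19:4037863-4038162, all on the minus strand.
G6pdx: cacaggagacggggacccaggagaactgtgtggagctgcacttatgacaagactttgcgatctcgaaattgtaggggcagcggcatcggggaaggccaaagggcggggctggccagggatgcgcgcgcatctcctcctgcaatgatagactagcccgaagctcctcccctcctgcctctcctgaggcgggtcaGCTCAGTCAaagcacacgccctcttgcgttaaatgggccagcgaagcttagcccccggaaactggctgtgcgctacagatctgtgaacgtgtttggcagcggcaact
Ugdh: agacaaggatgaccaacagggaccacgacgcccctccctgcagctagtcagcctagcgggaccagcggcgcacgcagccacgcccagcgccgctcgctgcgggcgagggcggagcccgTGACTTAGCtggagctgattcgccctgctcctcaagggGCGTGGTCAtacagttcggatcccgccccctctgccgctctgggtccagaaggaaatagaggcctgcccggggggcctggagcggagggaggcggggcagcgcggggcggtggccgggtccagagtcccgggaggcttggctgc
Nqo1: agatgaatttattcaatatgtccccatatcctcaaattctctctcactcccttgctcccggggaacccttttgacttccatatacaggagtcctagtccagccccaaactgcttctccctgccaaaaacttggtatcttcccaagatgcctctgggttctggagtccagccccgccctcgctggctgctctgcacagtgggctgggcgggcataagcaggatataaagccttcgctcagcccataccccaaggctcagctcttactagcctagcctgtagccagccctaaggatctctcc
Gstm3: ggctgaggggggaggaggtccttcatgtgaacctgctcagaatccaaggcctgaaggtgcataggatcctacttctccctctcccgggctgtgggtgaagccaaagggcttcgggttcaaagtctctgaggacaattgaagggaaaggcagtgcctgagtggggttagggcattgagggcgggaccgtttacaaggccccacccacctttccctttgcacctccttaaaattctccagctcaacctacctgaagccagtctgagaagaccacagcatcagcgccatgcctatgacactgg
Gstp1: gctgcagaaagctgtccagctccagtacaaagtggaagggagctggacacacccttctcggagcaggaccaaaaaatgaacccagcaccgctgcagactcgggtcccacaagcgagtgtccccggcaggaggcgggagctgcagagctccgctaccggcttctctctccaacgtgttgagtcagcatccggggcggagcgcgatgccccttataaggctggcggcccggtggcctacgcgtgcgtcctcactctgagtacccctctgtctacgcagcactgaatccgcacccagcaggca
The core stood at position -57 from the start in G6pdx and at positions -132 and -94 in Ugdh, while the windows of Nqo1, Gstm3 and Gstp1 did not hold these letters. Of the 32851 promoter windows in the RefSeq table, 12.4%, and 14.0% of the 27025 genes, held the core. Among the genes described here, 32 had a window and 10 of them (31.2%) held it: Nfe2l2, Gclm, G6pdx, Pgd, Ugdh, Txnrd1, Srxn1, Gsta3, Mgst1 and Prdx1. Gclc, Gsr, Hmox1, Gsta4 and Gstt2 had no entry. Only this form of the core was searched, so a window without it may hold another form of the element. A match is a string of letters in a short window and was not tied to binding of any factor.

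The libraries held between 19609584 and 27349613 reads assigned to genes. Slc25a47 itself had 163 to 330.3 CPM (reads of a gene scaled to the size of its library) in fasted KO livers, against 855 to 1139 CPM in fasted WT livers, and 81.8 to 153 CPM in fed KO livers, against 460.4 to 835 CPM in fed WT livers, and the genotypes did not overlap in either state. Hepatocyte markers were abundant in every library, with a sum of 99880 to 117300 CPM in fasted KO livers, against 79430 to 125500 CPM in fasted WT livers, and 78120 to 111200 CPM in fed KO livers, against 112500 to 119000 CPM in fed WT livers. Of these 6 markers, 3 were lower in fasted KO livers (Cps1 -0.53 ± 0.11 log2 (adjusted p = 0.00136), Apob -0.33 ± 0.09 log2 (adjusted p = 0.00824) and Serpina1a -0.30 ± 0.08 log2 (adjusted p = 0.00962)), 2 were lower in fed KO livers (Cps1 -0.66 ± 0.11 log2 (adjusted p = 0.000208) and Ttr -0.43 ± 0.11 log2 (adjusted p = 0.00675)), and none was higher. Of 6 stellate cell markers, 4 were higher in KO livers when fasted and 5 when fed, and their summed level was 401 to 478 CPM in fasted KO livers, against 307 to 365 CPM in fasted WT livers, and 395 to 473 CPM in fed KO livers, against 292 to 339 CPM in fed WT livers. Transcripts of the exocrine pancreas together reached 1618 CPM in replicate 2 and 449 CPM in replicate 4 of the fasted WT group, and at most 71.2 CPM in any other library. Of the 11 pancreatic genes found, 9 were at 0 in every fed WT library, leaving Cela1 and Cela2a. Macrophage markers summed to 206 to 306 CPM in fasted KO livers, against 171 to 269 CPM in fasted WT livers, and to 261 to 298 CPM in fed KO livers, against 184 to 302 CPM in fed WT livers, with 1 of 7 called higher in each state. Endothelial and bile duct markers had no call between the genotypes, and 1 of 5 tested red cell genes, Alas2, was lower in KO livers in both states. Beside these marker counts, 13.8% of all genes tested were higher and 14.5% lower in fasted KO livers. For fed KO livers the shares were 14.0% higher and 16.9% lower. The part of these cell types in the differences below was not tested. In whole liver, fewer cells of a type and less RNA per cell cannot be told apart.

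More of the called genes were lower than higher in KO livers when fasted, a balance that depended on the scaling, and more were higher than lower in KO livers when fed. Among fasted livers, 6 of the 37 genes were higher in KO and 13 were lower (edgeR's quasi-likelihood test with Benjamini-Hochberg adjustment over all genes tested, adjusted p below 0.05). Over all genes tested in that comparison, 28.3% were called, 13.8% higher and 14.5% lower. Among fed livers, 17 of the 37 were higher in KO and 5 were lower, where 30.9% of all genes tested were called, 14.0% higher and 16.9% lower. With libraries scaled by their totals alone, which moved the median of all genes to 0.20 in fasted and 0.22 in fed livers, 9 of the 37 were higher and 8 lower in fasted KO livers, and 20 were higher and 4 lower in fed KO livers. The median log2 fold change of the 37 was -0.10 in fasted livers and 0.28 in fed livers, against 0.01 and -0.01 for all genes tested. Differences of single genes are given below as log2 fold changes ± SE, written with the word log2, and are KO over WT unless said otherwise.

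Past the threshold in both states and in the same direction were 10 genes. Nfe2l2, Gss, Pgd, Tkt, Gstm2 and Gstm3 were higher in KO livers in both, as were 7.34% of all genes tested, and Gstp1, Gsta4, Mgst1 and Cat were lower in both, as were 8.75% of all genes tested. Ugdh and Gstt2 were lower in fasted KO livers and higher in fed KO livers, a pattern of 0.122% of all genes tested. In fed livers alone, 9 genes were called higher in KO (Nqo1, Txnrd1, Srxn1, Hmox1, Ephx1, Gsta1, Gstm4, Mgst3 and Gpx4), and 1, G6pdx, was called lower, where 6.55% of all genes tested were called higher and 8.03% lower in fed livers alone. Another 7 were called only in fasted livers, all lower in KO (Gclm, Gsr, Gstt1, Gstt3, Gstk1, Gpx1 and Prdx1), where 5.59% of all genes tested were called lower and 6.33% higher in fasted livers alone. Gclc, Keap1, Taldo1, Gsta2, Gsta3, Gstm1, Gstm6 and Gstp2 were called in neither. A call in 1 state only is no test of a difference between states, and that difference was tested for each gene as the fasted minus the fed genotype effect, given further below. 

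**Figure D1:**
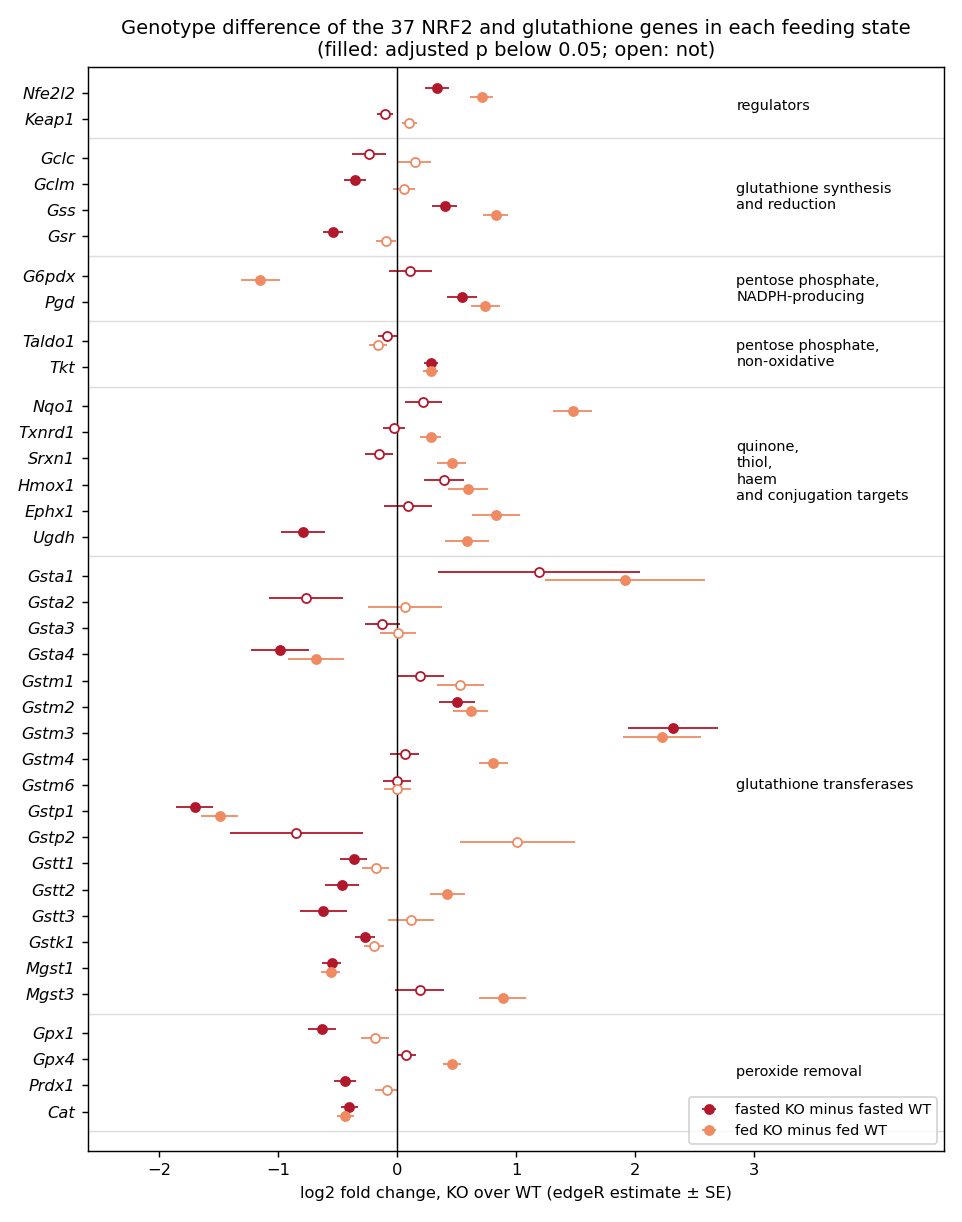
The log2 fold change of KO over WT, with its SE from edgeR, is plotted for the 37 genes grouped by role, with fasted livers in dark red above fed livers in orange and filled points past the threshold. All 6 quinone, thiol, haem and conjugation genes have filled orange points right of 0, whereas Gstp1 lies furthest left in both states, at -1.70 and -1.49.

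Nfe2l2, the gene of NRF2 itself (ENSMUSG00000015839, chr2:75675513-75704641, minus strand), was higher in KO livers in both states. In fasted livers Nfe2l2 had 77.9, 80.8, 76.1 and 78.0 CPM in KO libraries, against 62.0, 59.2, 54.2 and 72.8 CPM in WT libraries. In fed livers it had 113, 111, 130.3 and 138 CPM in KO libraries, against 84.5, 62.6, 76.7 and 76.6 CPM in WT libraries. The genotypes did not overlap in either state, and fed KO libraries were the highest of all 16. The KO over WT difference was 0.33 ± 0.10 log2 (adjusted p = 0.0154) when fasted and 0.71 ± 0.10 log2 (adjusted p = 2.83e-05) when fed. Leaving out fasted WT replicate 3 ended the fasted call (adjusted p = 0.0571, within a range of 0.000738 to 0.0571 over the alternatives tried). Keap1, which encodes the adaptor that marks NRF2 for degradation (ENSMUSG00000003308, chr9:21229730-21239361, minus strand), passed the test in neither state. Fasted KO libraries held 38.2, 38.5, 38.5 and 37.3 CPM of Keap1, against 38.8, 43.1, 39.1 and 43.0 CPM in fasted WT libraries. Fed KO libraries held 38.2, 40.6, 41.0 and 36.8 CPM, against 33.7, 38.6, 36.4 and 37.5 CPM in fed WT libraries. Every fasted KO library lay below every fasted WT library, by a small margin, and the fed groups overlapped. The differences were -0.10 ± 0.06 log2 (adjusted p = 0.24) in fasted and 0.10 ± 0.06 log2 (adjusted p = 0.246) in fed livers. Scaling by library totals alone called Keap1 higher in fed KO livers, 0.32 log2 (adjusted p = 0.00164). Keap1 shares 10.4% of its transcript's 50-base windows with the antisense transcript Gm16754, whose reads count towards Keap1 only if strand was ignored in counting.

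Of the 4 genes of glutathione synthesis and reduction, 1 was higher and 2 were lower in fasted KO livers, and 1 was higher in fed KO livers. Among all genes tested, 13.8% were higher and 14.5% lower when fasted, and 14.0% were higher when fed. Gss encodes glutathione synthetase, which adds glycine in the final step (ENSMUSG00000027610, chr2:155563181-155592810, minus strand). Gss stood at 74.4, 73.1, 66.7 and 66.1 CPM in fasted KO libraries, against 52.6, 57.7, 48.9 and 53.6 CPM in fasted WT libraries. It stood at 62.5, 63.0, 85.9 and 85.4 CPM in fed KO libraries, against 36.1, 47.2, 41.6 and 42.2 CPM in fed WT libraries. KO libraries lay above WT libraries in both states without overlap. The difference was 0.40 ± 0.11 log2 (adjusted p = 0.00826) when fasted and 0.83 ± 0.11 log2 (adjusted p = 1.45e-05) when fed. Gclc encodes the catalytic subunit of glutamate-cysteine ligase, the rate-limiting enzyme (ENSMUSG00000032350, chr9:77754535-77794485, plus strand). When mice were fasted, Gclc had 154, 205, 198 and 134 CPM in KO libraries, against 183, 208, 187 and 237 CPM in WT libraries. When mice were fed, it had 308, 409.9, 410.2 and 417 CPM in KO libraries, against 402, 283, 360.5 and 352 CPM in WT libraries. Both pairs of groups overlapped, and fed KO replicate 1 was low beside the other fed KO libraries. Its KO over WT values were -0.24 ± 0.14 log2 (adjusted p = 0.228) for fasted and 0.14 ± 0.14 log2 (adjusted p = 0.459) for fed livers, neither past the threshold.

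The modifier subunit of that ligase comes from Gclm (ENSMUSG00000028124, chr3:122245557-122270732, plus strand). For Gclm, fasted KO libraries gave 144, 144, 144 and 119.9 CPM, against 188, 184, 168 and 169 CPM in fasted WT libraries. The fed KO libraries gave 166, 169, 194 and 212 CPM, against 165, 159.7, 195 and 194 CPM in fed WT libraries. Every fasted KO library lay below every fasted WT library, while the fed groups overlapped. Gclm was lower in fasted KO livers, -0.36 ± 0.09 log2 (adjusted p = 0.00662), and gave 0.05 ± 0.09 log2 (adjusted p = 0.694) in fed livers. With libraries scaled by their totals alone, the fasted value was -0.17 and the call was lost (adjusted p = 0.144, within a range of 0.0011 to 0.144). The same scaling called Gclm higher in fed KO livers, 0.27 log2 (adjusted p = 0.023). Gsr encodes glutathione reductase, which spends NADPH to regenerate glutathione (ENSMUSG00000031584, chr8:33652523-33698163, plus strand). In fasted livers Gsr had 44.8, 52.3, 52.7 and 53.5 CPM in KO libraries, against 69.0, 76.3, 79.7 and 70.5 CPM in WT libraries. In fed livers it had 48.4, 51.9, 56.7 and 53.4 CPM in KO libraries, against 52.6, 63.5, 50 and 58.4 CPM in WT libraries. Fasted KO libraries lay apart from and below fasted WT libraries, and the fed groups overlapped. The difference was -0.54 ± 0.08 log2 (adjusted p = 9.14e-05) when fasted and -0.09 ± 0.08 log2 (adjusted p = 0.411) when fed.

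The 2 NADPH-producing genes of the pentose phosphate pathway parted in fed livers. G6pdx, the X-linked gene of glucose-6-phosphate dehydrogenase, which opens the pathway (ENSMUSG00000031400, chrX:74409483-74429194, minus strand), was lower in fed KO livers. Fasted KO libraries held 5.16, 4.66, 4.09 and 4.39 CPM of G6pdx, against 4.88, 4.84, 3.35 and 3.92 CPM in fasted WT libraries. Fed KO libraries held 5.91, 6.43, 4.87 and 6.06 CPM, against 16.2, 14.9, 8.76 and 11.8 CPM in fed WT libraries. In the fed state the WT libraries stood above all other libraries, and the fed KO libraries overlapped the range of the fasted libraries, where the genotypes overlapped too. The difference was 0.11 ± 0.18 log2 (adjusted p = 0.688) when fasted and -1.15 ± 0.17 log2 (adjusted p = 4.57e-05) when fed. Pgd, the gene of 6-phosphogluconate dehydrogenase, which makes the second NADPH of the pathway (ENSMUSG00000028961, chr4:149149991-149166771, minus strand), was higher in KO livers in both states. Pgd stood at 28.2, 30.2, 31.7 and 35.9 CPM in fasted KO libraries, against 22.6, 24.1, 22.2 and 17.4 CPM in fasted WT libraries. It stood at 69.1, 63.2, 80.5 and 74.8 CPM in fed KO libraries, against 53.8, 45.7, 35.8 and 36.9 CPM in fed WT libraries. There was no overlap between genotypes in either state. Pgd gave 0.54 ± 0.13 log2 (adjusted p = 0.00417) in fasted and 0.74 ± 0.12 log2 (adjusted p = 0.000271) in fed livers.

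Set per kilobase of exon, Pgd over G6pdx was 2.61 to 3.91 in fasted KO libraries, against 2.11 to 3.17 in fasted WT libraries. In fed livers the ratio was 4.70 to 7.90 in KO libraries, against 1.47 to 1.95 in WT libraries. The fed groups lay apart and the fasted groups overlapped. G6pdx shares 10.7% of its 50-base windows with the retrogene G6pd2 and with Ikbkg on the opposite strand, and Pgd shares none.

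The non-oxidative branch, which returns pentoses to glycolysis, is represented by Taldo1 and Tkt. Tkt encodes transketolase (ENSMUSG00000021957, chr14:30548359-30574720, plus strand). When mice were fasted, Tkt had 83.5, 79.2, 72.2 and 77.4 CPM in KO libraries, against 61.5, 65.7, 65.5 and 63.9 CPM in WT libraries. When mice were fed, it had 131, 135, 146 and 141 CPM in KO libraries, against 121, 107, 114 and 112 CPM in WT libraries. Tkt was higher in KO livers in both states with no overlap, by 0.28 ± 0.06 log2 (adjusted p = 0.00233) when fasted and 0.28 ± 0.06 log2 (adjusted p = 0.00224) when fed. Transaldolase is the product of Taldo1 (ENSMUSG00000025503, chr7:141392199-141402968, plus strand). For Taldo1, fasted KO libraries gave 67.5, 69.5, 57.5 and 56.8 CPM, against 71.6, 71.5, 60.4 and 63.1 CPM in fasted WT libraries. The fed KO libraries gave 80.6, 91.9, 88.9 and 90.5 CPM, against 101, 96.2, 94.2 and 102 CPM in fed WT libraries. Its fed KO libraries all lay below its fed WT libraries and its fasted groups overlapped, but neither difference passed the test, at -0.09 ± 0.08 log2 (adjusted p = 0.456) and -0.16 ± 0.08 log2 (adjusted p = 0.128) for fasted and fed livers.

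**Figure D2:**
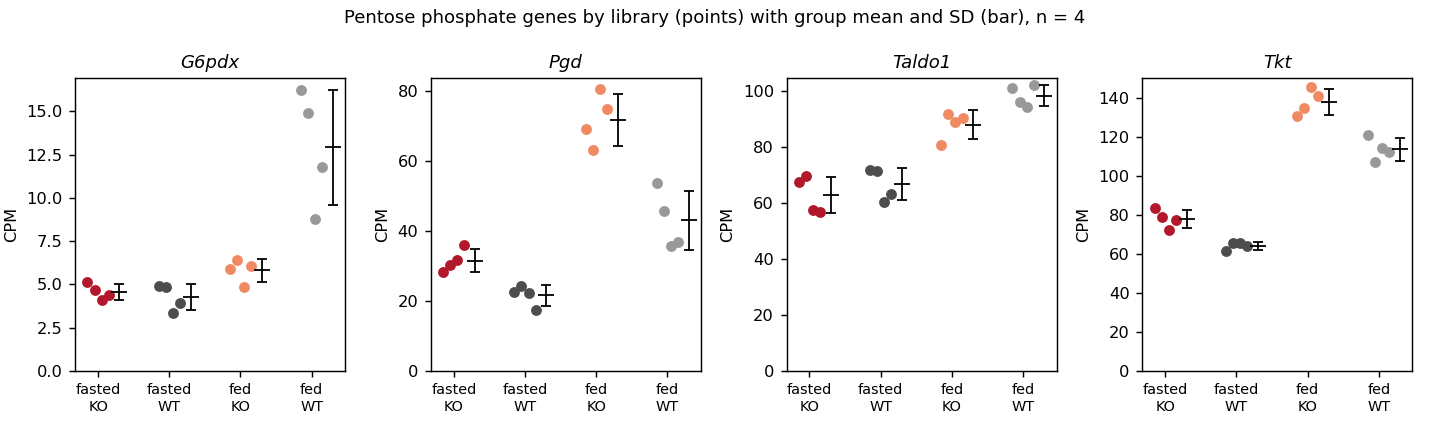
CPM of the 4 pentose phosphate genes is plotted for each library (points) with the group mean and SD (bars, n = 4). In the G6pdx panel the fed WT libraries at 8.76 to 16.2 CPM stand alone, while in the Pgd panel the fed KO libraries at 63.2 to 80.5 CPM are the highest.

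All 6 genes of quinone, thiol, haem and conjugation chemistry were higher in fed KO livers, and in fasted KO livers 1 was lower and none was higher. Among all genes tested, 14.0% were higher when fed, and 14.5% were lower and 13.8% higher when fasted. The fasted count of these 6 genes depended on the scaling. With library totals alone, Nqo1 (0.40 log2, adjusted p = 0.0395) and Hmox1 (0.58 log2, adjusted p = 0.0104) were called higher in fasted KO livers. Hmox1 was also called there with only the 8 libraries compared (adjusted p = 0.0325). Nqo1 encodes an NADPH-using quinone reductase that serves as a standard readout of NRF2 activity (ENSMUSG00000003849, chr8:107388225-107403206, minus strand). In fasted livers Nqo1 had 8.14, 9.15, 7.18 and 6.79 CPM in KO libraries, against 7.16, 6.45, 6.87 and 6.35 CPM in WT libraries. In fed livers it had 6.07, 8.96, 8.75 and 11.2 CPM in KO libraries, against 3.90, 2.72, 3.15 and 2.79 CPM in WT libraries. Every fed KO library was above every fed WT library, and all 3 remaining groups lay above fed WT. In fasted livers, where the groups overlapped, Nqo1 gave 0.22 ± 0.16 log2 (adjusted p = 0.319), and in fed livers the difference was 1.48 ± 0.17 log2 (adjusted p = 3.1e-06). It had 2410 reads over the 16 libraries.

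Ugdh, which encodes the dehydrogenase that makes UDP-glucuronate for glucuronidation (ENSMUSG00000029201, chr5:65413221-65435949, minus strand), changed in opposite directions. Fasted KO libraries held 80.3, 93.3, 71.3 and 53.0 CPM of Ugdh, against 131, 149, 114 and 123 CPM in fasted WT libraries. Fed KO libraries held 131, 136, 223 and 215 CPM, against 128, 115, 107 and 119 CPM in fed WT libraries. Fasted KO libraries were the lowest of all, and the fed KO libraries lay above the fed WT libraries, with replicates 3 and 4 well above replicates 1 and 2. The difference was -0.79 ± 0.19 log2 (adjusted p = 0.00562) when fasted and 0.59 ± 0.19 log2 (adjusted p = 0.027) when fed. The fed call ended in 7 of 24 alternatives, among them when fed KO replicate 3 (adjusted p = 0.0909) or 4 (0.0866) was left out, without fed WT replicate 2 (0.0629), 3 (0.0706) or 4 (0.0532), and without a filter on low counts (0.0788), within a range of 0.00275 to 0.0909, whereas the fasted call held in all 24.

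Ephx1 encodes microsomal epoxide hydrolase, which opens reactive epoxides (ENSMUSG00000038776, chr1:180976210-181020904, minus strand). Ephx1 stood at 480.0, 517, 406 and 364 CPM in fasted KO libraries, against 379, 436, 398 and 443 CPM in fasted WT libraries. It stood at 291, 447, 584 and 522 CPM in fed KO libraries, against 248, 174, 300.5 and 314 CPM in fed WT libraries. Fed KO replicate 1 fell within the range of the fed WT libraries and the other fed KO libraries lay above it. The difference was 0.09 ± 0.20 log2 (adjusted p = 0.771) in fasted livers and 0.83 ± 0.20 log2 (adjusted p = 0.00637), past the threshold, in fed livers. Haem oxygenase 1, from Hmox1, splits haem and is also abundant in liver macrophages (ENSMUSG00000005413, chr8:75093621-75100589, plus strand). When mice were fasted, Hmox1 had 29.1, 28.1, 27.6 and 21.4 CPM in KO libraries, against 23.2, 21.7, 19.8 and 16.2 CPM in WT libraries. When mice were fed, it had 28.7, 22.6, 34.0 and 39.4 CPM in KO libraries, against 25.7, 21.8, 16.9 and 18.2 CPM in WT libraries. Genotypes overlapped in both states. Hmox1 gave 0.39 ± 0.17 log2 (adjusted p = 0.096) in fasted livers and was higher in fed KO livers, 0.59 ± 0.17 log2 (adjusted p = 0.0143). Of 7 macrophage markers, only Cd68 was called, higher by 0.52 ± 0.15 log2 (adjusted p = 0.0168) in fasted and 0.55 ± 0.15 log2 (adjusted p = 0.00949) in fed KO livers. Estimates of the 7 markers ran from -0.14 to 1.01 log2 in fasted and from 0.10 to 0.55 log2 in fed livers. The part of macrophages in the Hmox1 difference was not tested.

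The 2 thiol genes had smaller estimates. Srxn1, which encodes the sulfiredoxin that repairs overoxidised peroxiredoxins, gave -0.15 ± 0.12 log2 (adjusted p = 0.369) in fasted livers. In fed livers it had 35.1 to 51.8 CPM in KO libraries, against 27.9 to 34.6 CPM in WT libraries, with no overlap and a difference of 0.46 ± 0.12 log2 (adjusted p = 0.0085). Txnrd1, the cytosolic thioredoxin reductase gene, had 123 to 153 CPM in fed KO livers, against 101 to 131 CPM in fed WT livers. The difference was -0.03 ± 0.09 log2 (adjusted p = 0.857) in fasted and 0.28 ± 0.09 log2 (adjusted p = 0.024) in fed livers. For Txnrd1 in fed livers the call ended when fed KO replicate 3 (adjusted p = 0.0854) or 4 (0.0796) was left out, and without fed WT replicate 3 (0.0863) or 4 (0.0717), within a range of 0.000253 to 0.0863.

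**Figure D3:**
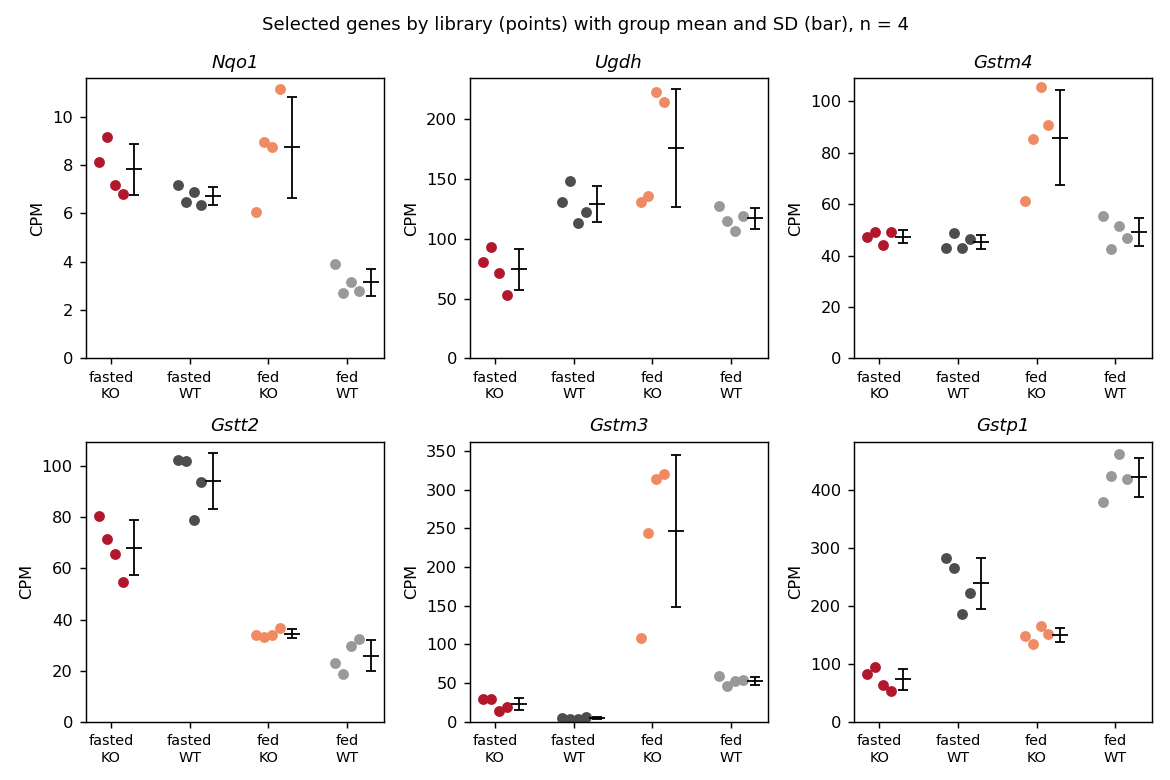
CPM of 6 genes is plotted for each library (points) with the group mean and SD (bars, n = 4). The upper row and Gstt2 show genes called in the test of whether the genotype difference depended on feeding. Among them is Ugdh, with 53.0 to 93.3 CPM in fasted KO and 131 to 223 CPM in fed KO libraries. Gstm3 and Gstp1 show the largest rise and fall.

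Among the 17 glutathione transferases, 2 were higher and 7 lower in fasted KO livers, and 6 were higher and 3 lower in fed KO livers. Of all genes tested, 13.8% were higher and 14.5% lower when fasted, and 14.0% were higher and 16.9% lower when fed. The median log2 fold change of the 17 was -0.27 in fasted and 0.11 in fed livers, and scaling by library totals alone gave -0.09 and 0.33. Gstm3, a mu class transferase (ENSMUSG00000004038, chr3:107963696-107969283, minus strand), had the largest rise of the 37 genes in both states. For Gstm3, fasted KO libraries gave 28.8, 29.8, 14.1 and 19.1 CPM, against 4.83, 3.07, 3.88 and 6.61 CPM in fasted WT libraries. The fed KO libraries gave 109, 244, 313 and 320.0 CPM, against 59.1, 46.5, 52.1 and 53.4 CPM in fed WT libraries. KO libraries lay above WT libraries in both states without overlap, and fed KO replicate 1 was the lowest of its group. The difference was 2.32 ± 0.38 log2 (adjusted p = 0.000576) when fasted and 2.23 ± 0.33 log2 (adjusted p = 0.000292) when fed. Gstp1, a pi class transferase gene (ENSMUSG00000060803, chr19:4035407-4037985, minus strand), had the largest fall in both. In fasted livers Gstp1 had 82.1, 94.2, 63.7 and 53.8 CPM in KO libraries, against 283, 266, 186 and 222 CPM in WT libraries. In fed livers it had 149, 134, 165 and 152 CPM in KO libraries, against 379, 425, 463 and 419.9 CPM in WT libraries. Every KO library lay below every WT library of its state. Gstp1 differed by -1.70 ± 0.16 log2 (adjusted p = 1.25e-06) in fasted and -1.49 ± 0.15 log2 (adjusted p = 3.17e-06) in fed livers.

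The other mu class genes lie beside Gstm3 on chromosome 3, in the order Gstm6, Gstm3, Gstm2, Gstm1, Gstm4, and gave smaller estimates. Gstm4 (ENSMUSG00000027890, chr3:108040408-108044894, minus strand) was called higher in fed KO livers. Fasted KO libraries held 47.0, 49.2, 43.9 and 49.0 CPM of Gstm4, against 43.0, 48.7, 43.1 and 46.3 CPM in fasted WT libraries. Fed KO libraries held 61.2, 85.4, 106 and 90.6 CPM, against 55.2, 42.6, 51.3 and 47.0 CPM in fed WT libraries. The fed groups lay apart and the fasted groups overlapped. It gave 0.06 ± 0.12 log2 (adjusted p = 0.739) in fasted and 0.81 ± 0.12 log2 (adjusted p = 8.61e-05) in fed livers. For Gstm2 (ENSMUSG00000040562, chr3:107981702-107986453, minus strand) the calls went the same way in both states. Gstm2 stood at 50.2, 50.4, 35.0 and 44.5 CPM in fasted KO libraries, against 35.0, 27.2, 28.6 and 36.5 CPM in fasted WT libraries. It stood at 60.9, 85.4, 84.9 and 92.4 CPM in fed KO libraries, against 64.3, 46.0, 47.8 and 53.1 CPM in fed WT libraries. The genotypes overlapped by 1 library in each state. The difference was 0.50 ± 0.15 log2 (adjusted p = 0.0198) when fasted and 0.62 ± 0.15 log2 (adjusted p = 0.00495) when fed. The fasted Gstm2 call was lost without fasted KO replicate 1 (adjusted p = 0.0689) or 2 (0.0568), without fasted WT replicate 2 (0.0615) or 3 (0.0587), without both fasted WT libraries that held pancreatic transcripts (0.0692) and without the filter on low counts (0.0517), within a range of 0.00121 to 0.0692.

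Gstm1 had 456 to 682 CPM in fasted KO livers, against 429 to 602 CPM in fasted WT livers, and 929.7 to 1934 CPM in fed KO livers, against 812 to 1208 CPM in fed WT livers. It gave 0.19 ± 0.20 log2 (adjusted p = 0.502) and 0.53 ± 0.20 log2 (adjusted p = 0.0544) for fasted and fed livers, but in the fed state it passed the test in 4 alternatives, among them with 0.71 when fed KO replicate 1 was left out. Gstm6 passed the test in neither state, with 0.00 ± 0.12 log2 (adjusted p = 0.997) when fasted and 0.00 ± 0.11 log2 (adjusted p = 0.996) when fed. Sequence shared with other genes covered 28.8% of the 50-base windows of Gstm3, 23.1% of Gstm1, 11.5% of Gstm6, 9.36% of Gstm2 and none of Gstm4. Reads that aligned to more than 1 place were 32 to 39.3% of all counted in KO libraries and 40.4 to 45.8% in WT libraries, and the part of this in the differences of genes with near copies was not tested.

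**Figure D4:**
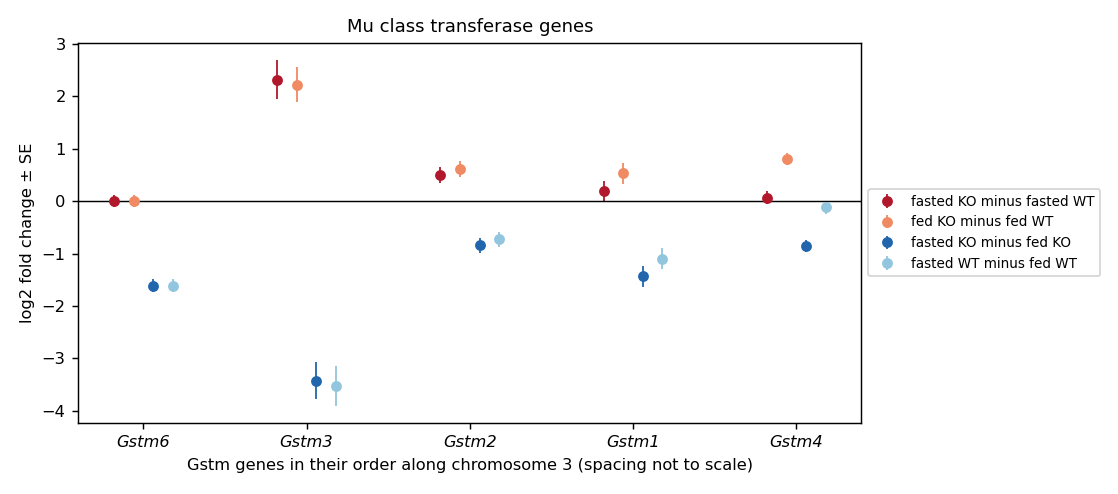
The log2 fold change with its SE is plotted for the 5 Gstm genes in their order along chromosome 3, for the genotype differences (dark red and orange) and the fasted over fed differences (dark and light blue). Gstm3 stands out with genotype differences of 2.32 and 2.23, while its neighbour Gstm6 is at 0.00 for both and at -1.61 for both fasting differences.

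Mgst1, a microsomal transferase of the endoplasmic reticulum and outer mitochondrial membrane (ENSMUSG00000008540, chr6:138140316-138156755, plus strand), was lower in KO livers in both states. When mice were fasted, Mgst1 had 2594, 2723, 2251 and 2283 CPM in KO libraries, against 3750, 3727, 3638 and 3336 CPM in WT libraries. When mice were fed, it had 2207, 2133, 1980 and 2187 CPM in KO libraries, against 3204, 3340, 2982 and 3030 CPM in WT libraries. No KO library reached a WT library. The difference was -0.55 ± 0.08 log2 (adjusted p = 4.61e-05) when fasted and -0.56 ± 0.08 log2 (adjusted p = 3.71e-05) when fed. Gsta4, whose alpha class product conjugates the lipid peroxidation product 4-hydroxynonenal (ENSMUSG00000032348, chr9:78182774-78209349, plus strand), was lower as well. For Gsta4, fasted KO libraries gave 13.0, 13.4, 10.1 and 5.98 CPM, against 20.1, 13.1, 23.0 and 27.8 CPM in fasted WT libraries. The fed KO libraries gave 14.2, 18.9, 20.8 and 21.3 CPM, against 32.1, 29.0, 30.8 and 28.9 CPM in fed WT libraries. The fed groups lay apart, and fasted WT replicate 2 fell among the fasted KO libraries. Gsta4 gave -0.99 ± 0.24 log2 (adjusted p = 0.00686) in fasted and -0.68 ± 0.23 log2 (adjusted p = 0.0375) in fed livers. In the fed state that call was lost without any 1 of the 8 fed libraries, with adjusted p-values of 0.102 and 0.0663 without fed KO replicates 1 and 2, 0.0582 and 0.0517 without replicates 3 and 4, 0.0759 and 0.0637 without fed WT replicates 1 and 2, and 0.0715 and 0.0604 without replicates 3 and 4. In all it was lost in 11 of 24 alternatives, among them scaling by totals (0.102) and no filter (0.0846), within a range of 0.00145 to 0.102.

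Mgst3, a microsomal transferase with peroxidase activity (ENSMUSG00000026688, chr1:167371966-167393841, minus strand), was higher in fed KO livers. In fasted livers Mgst3 had 6.63, 5.91, 4.51 and 3.84 CPM in KO libraries, against 5.46, 4.46, 3.79 and 4.65 CPM in WT libraries. In fed livers it had 6.32, 10.6, 9.82 and 11.6 CPM in KO libraries, against 5.38, 3.96, 6.39 and 5.05 CPM in WT libraries. Fed KO replicate 1 lay within the fed WT range. Mgst3 gave 0.19 ± 0.20 log2 (adjusted p = 0.533) in fasted and 0.89 ± 0.20 log2 (adjusted p = 0.00242) in fed livers. Gstt3, a theta class gene (ENSMUSG00000001665, chr10:75774115-75781414, minus strand), was lower in fasted KO livers. Fasted KO libraries held 14.4, 13.3, 10.2 and 15.1 CPM of Gstt3, against 26.4, 17.9, 14.6 and 22.6 CPM in fasted WT libraries. Fed KO libraries held 13.2, 23.0, 17.7 and 18.6 CPM, against 21.6, 15.1, 15.2 and 15.2 CPM in fed WT libraries. The groups overlapped in both states. It gave -0.62 ± 0.20 log2 (adjusted p = 0.0281) in fasted and 0.11 ± 0.20 log2 (adjusted p = 0.694) in fed livers, and 26.0% of its windows are shared with Gm20441, an overlapping transcript on its strand. The fasted Gstt3 call was lost without fasted KO replicate 2 (adjusted p = 0.0563) or 3 (0.0822), fasted WT replicate 1 (0.0958) or 4 (0.0707), both libraries with pancreatic transcripts (0.0946) or the filter (0.0839), and with scaling by totals (0.0841), within a range of 0.0055 to 0.0958.

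Gsta1, an alpha class gene (ENSMUSG00000074183, chr9:78230656-78242684, plus strand), was close to absent, with 125 reads over the 16 libraries. Gsta1 stood at 0.671, 0.283, 0.167 and 0.0776 CPM in fasted KO libraries, against 0.212, 0.161, 0.0892 and 0.0517 CPM in fasted WT libraries. It stood at 0.122, 0.536, 1.38 and 0.825 CPM in fed KO libraries, against 0.355, 0.04, 0.185 and 0.196 CPM in fed WT libraries. Fed KO replicates 2 to 4 were the highest fed libraries and replicate 1 was within the fed WT range. The estimate was 1.19 ± 0.85 log2 (adjusted p = 0.319) in fasted and 1.91 ± 0.67 log2 (adjusted p = 0.0383) in fed livers. Each WT library held 1 to 7 reads of Gsta1, and only KO libraries brought it past the filter on low counts. Its fed call, counted above among those higher in fed KO livers, is thus no separate evidence of a rise. That fed call was lost in 8 of 23 alternatives, including without fed KO replicate 3 (adjusted p = 0.167) or 4 (0.0739) and without fed WT replicate 2 (0.112), 3 (0.0768) or 4 (0.0723), within a range of 0.00738 to 0.167. Gsta1 shares 89.7% of its windows with Gsta2 and 2 predicted genes. Reads that aligned to more than 1 place were kept apart from the gene counts, so its counts may leave out reads of the gene.

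Of the remaining transferases, Gstt2 (theta class) had 54.7 to 80.5 CPM in fasted KO livers, against 79.0 to 102.5 CPM in fasted WT livers, and 33.3 to 36.9 CPM in fed KO livers, against 18.7 to 32.2 CPM in fed WT livers. It gave -0.47 ± 0.14 log2 (adjusted p = 0.0214) in fasted and 0.42 ± 0.15 log2 (adjusted p = 0.0403) in fed livers. Gstt1 gave -0.37 ± 0.12 log2 (adjusted p = 0.0239) and Gstk1, a mitochondrial and peroxisomal transferase, -0.27 ± 0.09 log2 (adjusted p = 0.0236) in fasted livers, and neither was called in fed livers. These calls were lost in 7 of 24 alternatives for Gstt2 and in 6 each for Gstt1 and Gstk1. Scaling by totals gave -0.29 log2 for Gstt2 (adjusted p = 0.123), -0.18 for Gstt1 (0.198) and -0.09 for Gstk1 (0.427), and leaving out both libraries with pancreatic transcripts gave an adjusted p of 0.126, 0.0847 and 0.264 in the same order. Among single libraries, without fasted KO replicate 3 the adjusted p was 0.0537 for Gstt2, 0.0625 for Gstt1 and 0.0854 for Gstk1, and without fasted KO replicate 4 it was 0.0719, 0.0727 and 0.0763 for the same genes. Without fasted WT replicate 4 it was 0.0967 for Gstt1 and 0.0719 for Gstk1, without fasted WT replicate 2 it was 0.058 for Gstt2 and 0.0684 for Gstk1, and without fasted WT replicate 1 it was 0.061 for Gstt2. The ranges over all alternatives were 0.00569 to 0.126 for Gstt2, 0.00961 to 0.198 for Gstt1 and 0.00528 to 0.427 for Gstk1. Gstt2 in fed livers was no longer called in 9 of 24 alternatives, among them without fed KO replicate 1 (0.0655), 2 (0.0566), 3 (0.0734) or 4 (0.0954) and without fed WT replicate 1 (0.102) or 2 (0.111), within a range of 0.00256 to 0.111.

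Gsta2, Gsta3 and Gstp2 passed the test in neither state. Gsta3, the most abundant alpha class gene here per kilobase of exon, gave -0.12 ± 0.15 log2 (adjusted p = 0.573) in fasted and 0.01 ± 0.15 log2 (adjusted p = 0.975) in fed livers. Gstp2 shares 72.6% of its windows and Gstp1 62.3%, chiefly with each other, but Gstp2 had 448 reads over the 16 libraries, against 77182 for Gstp1. In fasted WT replicate 2, which holds pancreatic transcripts, Gstp2 was at 2.47 CPM, while the other fasted WT libraries had 0.49 to 0.93 CPM.

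Of the 4 peroxide-removing enzymes, 3 were lower in fasted KO livers, and in fed KO livers 1 was higher and 1 lower. Among all genes tested, 14.5% were lower when fasted, and 14.0% were higher and 16.9% lower when fed. Gpx1, the cytosolic glutathione peroxidase gene (ENSMUSG00000063856, chr9:108338903-108340343, plus strand), was lower in fasted KO livers. When mice were fasted, Gpx1 had 947, 1062, 819 and 667 CPM in KO libraries, against 1429, 1350, 1144 and 1497 CPM in WT libraries. When mice were fed, it had 1034, 1002, 974 and 910.3 CPM in KO libraries, against 1106, 1018, 1175 and 1164 CPM in WT libraries. The fasted groups lay apart and the fed groups overlapped. It gave -0.63 ± 0.12 log2 (adjusted p = 0.000449) in fasted and -0.19 ± 0.11 log2 (adjusted p = 0.231) in fed livers. Cat, the peroxisomal catalase gene, had 2194 to 2498 CPM in fasted KO livers, against 3111 to 3213 CPM in fasted WT livers, and 2591 to 2748 CPM in fed KO livers, against 3303 to 3840 CPM in fed WT livers. Its differences were -0.40 ± 0.07 log2 (adjusted p = 0.000278) when fasted and -0.44 ± 0.07 log2 (adjusted p = 0.00013) when fed, without overlap in either. Prdx1, a cytosolic peroxiredoxin gene, gave -0.44 ± 0.09 log2 (adjusted p = 0.00189) in fasted and -0.09 ± 0.09 log2 (adjusted p = 0.499) in fed livers. Gpx4, whose product reduces lipid hydroperoxides in membranes, gave 0.08 ± 0.08 log2 (adjusted p = 0.508) in fasted livers and was higher in fed KO livers, 0.46 ± 0.08 log2 (adjusted p = 0.000259). Of the Gpx4 windows 61.7% also occur in other genes, chiefly the pseudogene Gpx4-ps2.

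The summed levels of the NADPH-producing genes and of the transferases were set against each other in each library. The summed level of the 17 transferases was 1772 to 2219 CPM per kilobase of exon in fasted KO libraries, against 2605 to 2738 in fasted WT libraries. G6pdx and Pgd together had 6.05 to 6.99 CPM per kilobase in fasted KO libraries, against 3.97 to 5.32 in fasted WT libraries. The KO libraries were thus below WT for the transferases and above WT for the pair, and the ratio of the sums was 260.2 to 362 in fasted KO libraries, against 502 to 667 in fasted WT libraries. In fed livers the transferases summed to 2442 to 3484 CPM per kilobase in KO libraries, against 3157 to 3340 in WT libraries. The fed pair had 11.9 to 14.1 CPM per kilobase in KO libraries, against 8.40 to 13.6 in WT libraries, and the ratio was 193 to 262 in KO libraries, against 246 to 393 in WT libraries. Both fed measures overlapped.

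Mgst1 alone made up a large part of the transferase sum, and without it the sum was 653 to 905 CPM per kilobase in fasted KO libraries, against 798 to 989 in fasted WT libraries, which overlapped. For fed livers it was 1345 to 2397 in KO libraries, against 1498 to 1822 in WT libraries. Counted by gene, 1 of the 2 NADPH-producing genes was higher and none lower in fasted KO livers, where 2 of 17 transferases were higher and 7 lower. In fed KO livers 1 of the 2 was higher and 1 lower, and 6 of the 17 were higher and 3 lower. For all genes tested the shares were 13.8% higher and 14.5% lower when fasted, and 14.0% higher and 16.9% lower when fed. The median log2 fold change of the pair was 0.33 in fasted livers and -0.21 in fed livers, and the fed value became 0.02 with scaling by library totals alone. No test was made of the difference between the sums, since the genes were chosen with results of these data known.

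**Figure D5:**
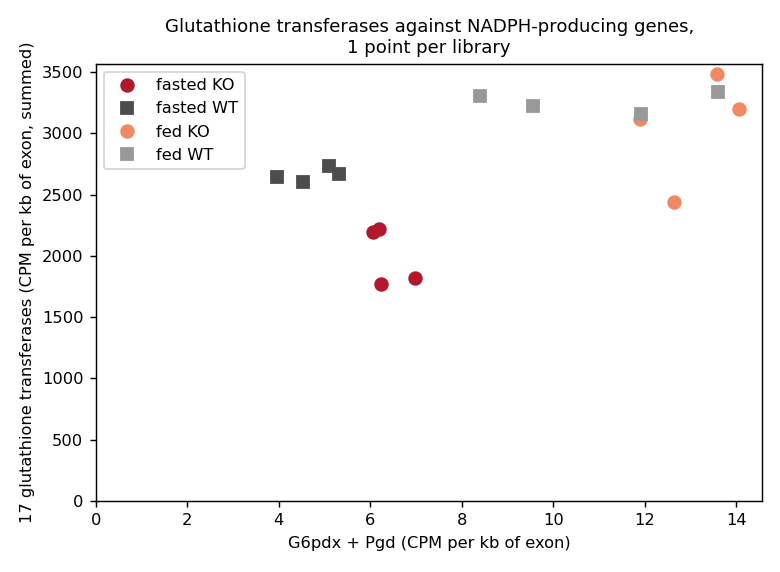
Each point is 1 library, with the summed CPM per kilobase of exon of G6pdx and Pgd on the horizontal axis and that of the 17 glutathione transferases on the vertical axis. The fasted KO libraries lie below and to the right of the fasted WT libraries, at 1772 to 2219 against 2605 to 2738, and the fed groups overlap.

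The test of whether the genotype difference depended on feeding called 5 of the 37 genes, 1 with a positive and 4 with a negative fasted minus fed effect, where 1.70% of all genes tested were called, 1.07% positive and 0.633% negative. G6pdx was the positive one, 1.26 ± 0.24 log2 (adjusted p = 0.0142). Ugdh gave -1.38 ± 0.26 log2 (adjusted p = 0.0217), Nqo1 -1.26 ± 0.23 log2 (adjusted p = 0.0116), Gstt2 -0.89 ± 0.20 log2 (adjusted p = 0.0394) and Gstm4 -0.74 ± 0.17 log2 (adjusted p = 0.0369). The estimate was negative for 30 of the 37 genes, with a median of -0.35, against 0.01 for all genes tested. As the 37 were chosen with results of these data known, no test was made of this count or median. Nqo1 held its call in all 23 alternatives at this threshold, with adjusted p-values of 5.98e-05 to 0.036. G6pdx lost it without the 2 fasted WT libraries that held pancreatic transcripts (adjusted p = 0.0512, within 0.000399 to 0.0512). Ugdh lost it in 3 of 23 alternatives, among them that one (0.0776) and without fasted KO replicate 3 (0.0521), within 1.32e-05 to 0.0776. Gstm4 and Gstt2 lost it in 13 of 23 alternatives each, 11 and 10 of them with a single library left out, with adjusted p-values of up to 0.124 and 0.123. The count of negative calls was 1 without fasted KO replicate 3 and 2 without fasted KO replicate 2 or 4, fasted WT replicate 1, 2 or 4, or fed KO replicate 3 or 4.

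Fasted livers were also compared with fed livers within each genotype, in comparisons that share their libraries with those above. In KO livers 3 of the 37 genes were higher and 20 lower after fasting, where 41.4% of all genes tested were called, 21.1% higher and 20.3% lower. For WT livers 8 were higher and 14 lower, where 34.5% of all genes were called, 16.2% higher and 18.3% lower. The higher count was 4 without the 2 fasted WT libraries that held pancreatic transcripts. Of the 17 transferases 2 were higher and 11 lower after fasting in KO livers, and 2 were higher and 7 lower in WT livers. Their median was -0.86 in KO livers and -0.52 in WT livers, where it became -0.16 without fed WT replicate 1 and -0.29 without fasted WT replicate 4.

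Of the 4 pentose phosphate genes, 3 were lower after fasting in KO livers and 4 in WT livers. After fasting, 20.3% of all genes tested were lower in KO livers and 18.3% in WT livers. G6pdx gave -0.35 ± 0.17 log2 (adjusted p = 0.114) in KO livers and -1.61 ± 0.17 log2 (adjusted p = 8.15e-07) in WT livers. In KO livers it was called lower after fasting with scaling by library totals (adjusted p = 0.0459) and with the replicate block (0.027). Gstm3 had the largest fall of the 37 genes after fasting, with -3.43 ± 0.35 log2 (adjusted p = 7.64e-06) in KO livers and -3.52 ± 0.38 log2 (adjusted p = 1.26e-05) in WT livers. Gstt2 and Srxn1 were higher after fasting in both genotypes, Gstt2 by 0.98 ± 0.15 log2 (adjusted p = 5.99e-05) in KO and 1.87 ± 0.15 log2 (adjusted p = 7.52e-08) in WT livers, and Srxn1 by 0.60 ± 0.12 log2 (adjusted p = 0.000663) in KO and 1.21 ± 0.12 log2 (adjusted p = 5.53e-07) in WT livers. Nqo1 rose after fasting in WT livers, 1.10 ± 0.17 log2 (adjusted p = 5.15e-05), and gave -0.16 ± 0.15 log2 (adjusted p = 0.433) in KO livers. Ugdh fell after fasting in KO livers, -1.24 ± 0.19 log2 (adjusted p = 0.00012), and gave 0.14 ± 0.19 log2 (adjusted p = 0.615) in WT livers.

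Levels per kilobase of exon differed widely among the genes. Mgst1 ranked first in all 4 groups, with 1224 CPM per kilobase in fasted KO, 1795 in fasted WT, 1056 in fed KO and 1559 in fed WT livers on average. Cat followed in fasted KO, fasted WT and fed WT livers (915, 1211 and 1385 CPM per kilobase), while in fed KO livers Gstm1 (1032) and Cat (1022) lay close to each other and to Mgst1. Gpx1 came next, with 606 CPM per kilobase in fasted KO, 941 in fasted WT, 680.2 in fed KO and 774 in fed WT livers. At the other end, Gsta1 was lowest in every group, followed by G6pdx in fed KO livers and by Gstp2 in the other groups. G6pdx had 1.49 CPM per kilobase in fasted KO, 1.38 in fasted WT, 1.89 in fed KO and 4.20 in fed WT livers.

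Genes of the same pathways outside the 37 were counted in the same fit. Over all genes tested, 13.8% were higher and 14.5% lower in fasted KO livers, and 14.0% were higher and 16.9% lower in fed KO livers. Of 11 other NADPH and pentose phosphate genes, 1 was higher and 4 lower in fasted KO livers, and 2 were higher and 2 lower in fed KO livers. Idh2, the mitochondrial NADP-dependent isocitrate dehydrogenase gene, was higher in both, by 0.47 ± 0.10 log2 (adjusted p = 0.00155) when fasted and 0.92 ± 0.10 log2 (adjusted p = 2.34e-06) when fed. Its cytosolic counterpart Idh1 was lower in fasted KO livers, -0.56 ± 0.10 log2 (adjusted p = 0.000251), and the malic enzyme gene Me1 was higher in fed KO livers, 0.57 ± 0.16 log2 (adjusted p = 0.0128). Among 7 other transferases tested, 1 was higher in fasted KO livers (Gstp3) and 1 lower in fed KO livers (Gstz1). Of 18 other NRF2 targets tested, 3 were higher and 5 lower in fasted KO livers, and 8 were higher and 3 lower in fed KO livers. Abcc4, an exporter of organic anions, was higher by 2.34 ± 0.26 log2 (adjusted p = 1.36e-05) when fasted and 2.27 ± 0.26 log2 (adjusted p = 1.27e-05) when fed, and Txn1, the cytosolic thioredoxin gene, was lower in fasted KO livers, -0.71 ± 0.08 log2 (adjusted p = 5.14e-06).

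Of 18 genes of glutathione supply, transport and breakdown, 4 were higher and 5 lower in KO livers in each state. Slc25a39, which carries glutathione into mitochondria, was higher by 0.44 ± 0.08 log2 (adjusted p = 0.000376) when fasted and 0.99 ± 0.08 log2 (adjusted p = 4.31e-08) when fed. Glo1, the glyoxalase that uses glutathione to remove methylglyoxal, was lower, -0.78 ± 0.08 log2 (adjusted p = 2.59e-06) when fasted and -0.97 ± 0.08 log2 (adjusted p = 1.63e-07) when fed. Among 20 other peroxide, superoxide and thiol enzymes, 5 were higher and 4 lower in fasted KO livers, and 10 were higher and 3 lower in fed KO livers. The shares of all genes tested were 13.8% higher and 14.5% lower when fasted, and 14.0% higher and 16.9% lower when fed. The glutaredoxin gene Glrx was lower in both, -1.22 ± 0.11 log2 (adjusted p = 2.51e-07) when fasted and -0.68 ± 0.11 log2 (adjusted p = 0.000191) when fed.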

How the data were processed

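RNA of mouse livers was profiled in 16 poly(A) libraries made with stranded reagents from 500 ng of total RNA, per the labels' protocols. The authors deposited counts, whole numbers of reads per gene with no normalization, and lines of reads that could not be assigned. Those lines stayed out of library sizes and tests. The submitters' processing notes name GRCm38 as the build, with HTSeq 0.9.1, STAR 2.5.3a and cutadapt 1.8 as tools, and the strand setting is not given in the sources used here. Unassigned reads without a feature were 2.98 to 4.29% of counts, and ambiguous ones 1.05 to 1.65%.

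From the counts, edgeR 4.0.16 (R 4.3.3) was run with TMM scaling, its default filter on low expression, robust quasi-likelihood fits with 1 coefficient per group over all 16 libraries, and Benjamini-Hochberg adjustment over 13905 genes at a threshold of 0.05. The fit had 12 residual degrees of freedom and a common biological coefficient of variation of 0.138, and its step was tested on simulated data. CPM used TMM-scaled totals of gene reads, and levels between genes used CPM per kilobase of merged exons. Gene positions and exon lengths come from GENCODE M21 (GRCm38). The share of 50-base windows is that of a gene's longest protein-coding transcript found exactly, on either strand, in transcripts of other genes. Promoter sequences come from RefSeq.

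The genes and lists were chosen with earlier results of these data known. Values in every library are given for genes called in a genotype comparison with a log2 fold change of at least 0.5 in size, and for all regulators, glutathione synthesis and pentose phosphate genes. From each other list up to 4 called genes per comparison with the smallest p could be named. Alternatives were DESeq2 1.42.0 (Wald test, and its size factors in edgeR), scaling by library totals, no filter, no robust estimation, a replicate block, only the 8 libraries compared, leaving out each library, leaving out fasted WT replicates 2 and 4, and a threshold of 0.01. The labels state no pairing, so replicate numbers were not used as pairs in the main fit. Of 24 same-numbered pairs, 3 correlated above 0.1 in their deviations from group means, a check that cannot exclude pairing.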

Additional observations from a re-analysis of the deposited data

Results flagged for a closer look

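The test of the fasted minus the fed KO over WT difference called 5 of the 37 genes, where 1.70% of all genes tested were called. Gstm4 and Gstt2 lost this call in 13 of 23 alternatives each, and a threshold of 0.01 left 0 of the 37. The log2 estimate was 1.26 for G6pdx, -1.26 for Nqo1, -1.38 for Ugdh, -0.74 for Gstm4 and -0.89 for Gstt2.

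In 4 of the 148 gene-by-group sets of 4 libraries (2.7%), a single library stood far from the others, where chance gives about 1 in 20. Gclc was at 307.7 CPM in fed KO replicate 1, while the other fed KO libraries had 409.9 to 417 CPM. Gclm was at 119.9 CPM in fasted KO replicate 4, beside 144 to 144.3 CPM in the others. Gsr was at 44.8 CPM in fasted KO replicate 1, beside 52.3 to 53.5 CPM. Gstt3 was at 21.7 CPM in fed WT replicate 1, beside 15.1 to 15.2 CPM.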

How the results depend on the processing

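No called difference of the 37 genes changed sign under any alternative, over 91 gene and comparison pairs. Of the 94 pairs that were not called, 20 were called in some alternative and 30 changed sign in some alternative. None was called with its sign changed. Scaling by library totals moved the median of all genes to 0.20 (fasted) and 0.22 (fed) log2 in KO over WT. It gave 4301 genes higher and 902 lower in fasted KO livers, 4886 and 915 in fed KO livers, 9 of the 37 higher and 8 lower in fasted KO livers, fed medians of 0.33 for the transferases and 0.0188 for G6pdx and Pgd, and 88 genes with a positive fasted minus fed effect. The DESeq2 Wald test gave 285 positive and 245 negative such effects, 7 of the 37 negative. A threshold of 0.01 gave 1113 higher and 1219 lower in fasted KO livers, 1074 and 1375 in fed KO livers, 1476 and 1638 after fasting in WT livers (5 of the 37 higher), 1860 lower after fasting in KO livers, and 16 positive and 7 negative effects with 0 of the 37. Without the 2 fasted WT libraries that held pancreatic transcripts, 39 effects were positive and 33 negative, with 0 and 1 of the 37, and 4 of the 37 were higher after fasting in WT livers. Leaving out 1 library at a time gave 51 to 352 positive and 34 to 171 negative effects, 1 to 5 of the 37 negative, and -0.54 to -0.16 for the transferase median after fasting in WT livers. The replicate block, for which the labels state no pairing (r -0.174 to 0.251 between same-numbered libraries), gave 3 of the 37 negative effects. It ended the fed calls of Ugdh (adjusted p = 0.0561), Gsta1 (0.0571), Gsta4 (0.072) and Gstt2 (0.0678) and the fasted minus fed calls of Ugdh (0.0506), Gstm4 (0.0585) and Gstt2 (0.075). Depth limits Gsta1, Gstp2, Mgst3, Nqo1 and G6pdx most, which had the fewest reads of the 37 genes.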

Other observations

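Targets of the xenobiotic receptors CAR and PXR, which share some transferase targets with NRF2, were higher in KO livers for 3 of 8 genes and lower for 2 when fasted, and higher for 4 and lower for 1 when fed. The shares of all genes tested were 13.8% higher and 14.5% lower when fasted, and 14.0% higher and 16.9% lower when fed. Cyp2b10, the classic CAR target, was higher by 3.54 ± 0.60 log2 in fasted KO livers (adjusted p = 0.000862) and by 4.05 ± 0.61 in fed KO livers (adjusted p = 0.00038). Cyp3a11, the main PXR target, was higher by 1.93 ± 0.20 log2 in fasted KO livers (adjusted p = 7.03e-06) and by 1.91 ± 0.20 in fed KO livers (adjusted p = 6.59e-06). Ces2a, a carboxylesterase gene, was lower in both.

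All animals were male, and 9 of 9 male-biased liver genes were lower in KO livers in both states, with medians of -1.88 log2 when fasted and -2.54 when fed. Of all genes tested, 14.5% were lower when fasted and 16.9% when fed. Mup21, a major urinary protein gene, differed by -2.66 ± 0.25 log2 in fasted KO livers (adjusted p = 5.14e-06) and -3.35 ± 0.26 in fed KO livers (adjusted p = 6.4e-07). Of 6 female-biased genes tested, 3 were higher in KO livers when fasted (13.8% of all genes) and 5 when fed (14.0% of all genes), led by Cyp2b9 and Cyp2a4. In WT libraries Cyp2b9 had 1 to 6 reads and Cyp2a4 had 0 to 6. Only KO libraries brought both past the filter on low counts. Their calls, counted here in both states, are thus no separate evidence of a rise. The part of the sex-biased genes in the transferase differences was not tested.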
